A study of Mus musculus with 2 samples.

Results

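The Dlx genes are the mouse distal-less homeobox family, Dlx1 to Dlx6, and were taken by symbol from deposited RNA-seq tables of the embryonic face. They were 6 of 43346 gene rows, with 17 annotated transcripts among them. The tissue was embryonic facial prominence, which forms the face and jaws, from healthy B6NCrl mouse embryos at 15.5 days. There was 1 group of 2 libraries, labelled biological replicates 1 and 2, pooled from 78 and 62 embryos of both sexes, under the same donor label. RNA over 200 nucleotides was extracted with a mirVana kit and 10 ng entered each library. The assay is labelled total RNA-seq, though 1 linked protocol is for a low-input kit. With no second group no test was made. Each value is given for both replicates or as mean ± SD (n = 2).

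Dlx proteins are transcription factors that bind DNA through a homeodomain. The genes lie in linked pairs, each pair transcribed towards its own middle and sharing enhancers. In the pharyngeal arches their expression is nested from the base to the tip of each arch: Dlx1 and Dlx2 are needed for upper jaw structures, and Dlx5 and Dlx6, under endothelin signalling, give lower jaw identity. Dlx3 acts in epidermis, hair, teeth and bone, Dlx5 acts in osteoblasts, and Dlx1, Dlx2, Dlx5 and Dlx6 are also known from GABAergic neurons of the forebrain.

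All 3 pairs were convergent in GENCODE M21 (GRCm38). On chromosome 2, Dlx1 (chr2:71528113-71533981, plus strand) and Dlx2 (chr2:71543408-71546754, minus strand) were 9426 bases apart. On chromosome 11, Dlx3 (chr11:95120119-95125296, plus strand) and Dlx4 (chr11:95140447-95146263, minus strand) were 15150 bases apart. On chromosome 6, Dlx6 (chr6:6863334-6868568, plus strand) and Dlx5 (chr6:6877805-6882085, minus strand) were 9236 bases apart.

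**Figure D1:**
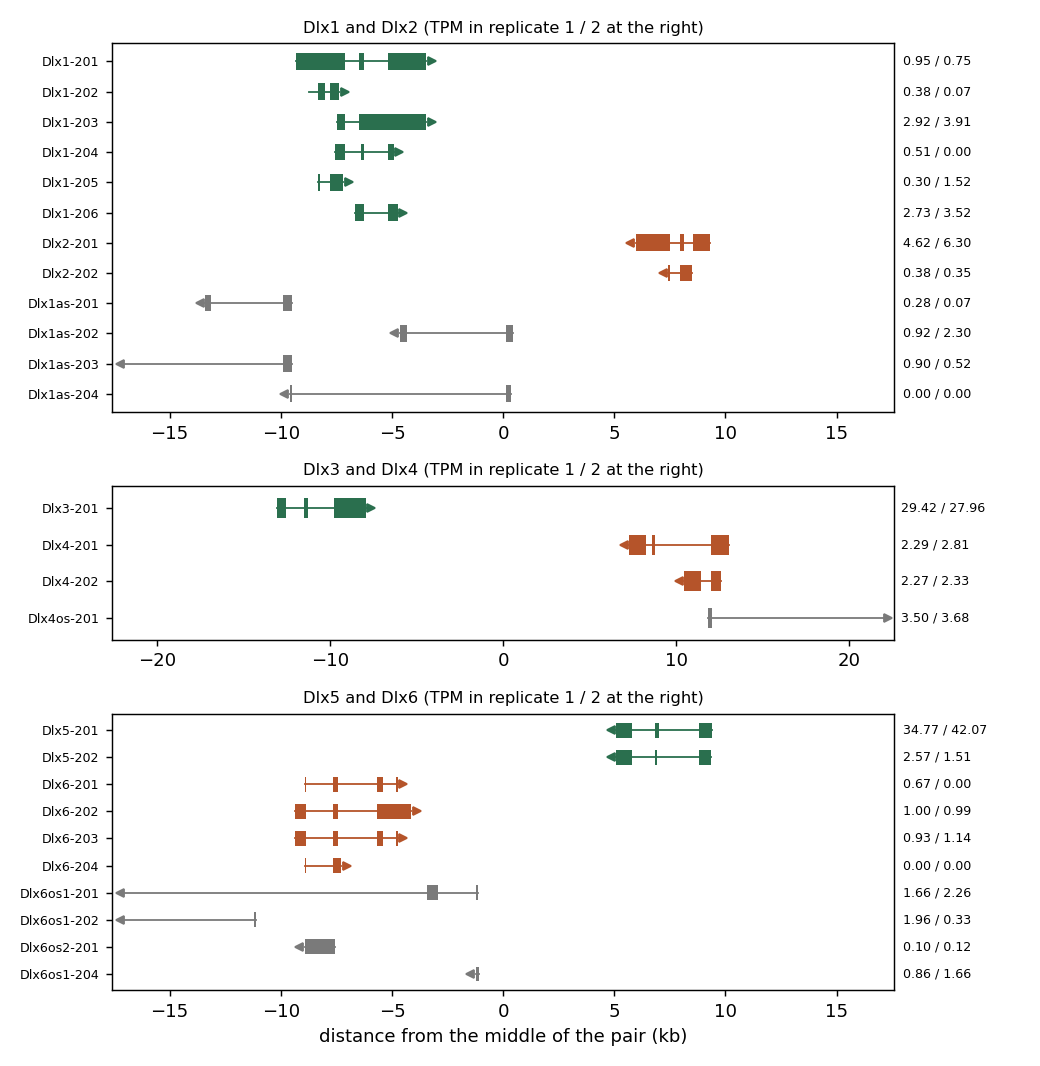
Exons (boxes) and introns (lines) of the transcripts in the tables at each linked pair, by distance in kb from the middle of the pair, with arrowheads in the direction of transcription. Green is the first gene of the pair, brown the other, grey the noncoding genes, and an arrowhead at the frame marks a transcript that runs on past it. The values at the right are TPM in replicates 1 and 2, and both genes of every pair point inward.

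The homeobox is the stretch of coding sequence for the homeodomain and is shown because it defines the family and because the transcripts described further on keep or lose it. Each homeobox was 180 bases, read 5′ to 3′ from GENCODE M21 transcripts (GRCm38). The coordinates span its first to last base on the genome, with 1 intron inside. Capitals mark the 12 bases of 4 codons in the DNA recognition helix by which the homeobox was located.
Dlx1 (chr2:71531025-71532311, plus strand): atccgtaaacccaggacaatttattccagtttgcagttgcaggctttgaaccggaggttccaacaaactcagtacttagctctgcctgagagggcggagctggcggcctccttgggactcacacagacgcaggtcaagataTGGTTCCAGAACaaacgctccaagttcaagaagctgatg
Dlx2 (chr2:71544877-71545515, minus strand): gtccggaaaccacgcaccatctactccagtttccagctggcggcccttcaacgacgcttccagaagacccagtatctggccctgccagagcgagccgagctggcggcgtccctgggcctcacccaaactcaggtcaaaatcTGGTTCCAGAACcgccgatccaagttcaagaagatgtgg
Dlx3 (chr11:95121767-95123456, plus strand): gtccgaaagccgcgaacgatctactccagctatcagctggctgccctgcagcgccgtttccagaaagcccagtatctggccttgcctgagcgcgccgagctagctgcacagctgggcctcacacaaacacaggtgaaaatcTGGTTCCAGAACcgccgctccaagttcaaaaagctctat
Dlx4 (chr11:95141422-95141920, minus strand): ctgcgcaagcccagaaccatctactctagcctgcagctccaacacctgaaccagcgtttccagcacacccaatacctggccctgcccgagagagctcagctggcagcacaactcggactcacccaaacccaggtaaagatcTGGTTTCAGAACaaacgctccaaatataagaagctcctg
Dlx5 (chr6:6878441-6879657, minus strand): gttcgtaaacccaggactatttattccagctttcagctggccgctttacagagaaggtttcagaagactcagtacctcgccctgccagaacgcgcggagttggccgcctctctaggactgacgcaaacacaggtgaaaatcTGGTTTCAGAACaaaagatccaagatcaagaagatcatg
Dlx6 (chr6:6865140-6867088, plus strand): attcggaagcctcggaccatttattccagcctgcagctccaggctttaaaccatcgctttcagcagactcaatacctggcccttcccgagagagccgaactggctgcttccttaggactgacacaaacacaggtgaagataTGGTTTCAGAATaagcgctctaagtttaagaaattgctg

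In all 6 genes the intron followed base 132 of the homeobox, leaving 48 bases in the next exon. The intron ran from 319 bases in Dlx4 to 1769 in Dlx6. Over the 15 comparisons of 2 genes, from 66.1% (Dlx3 and Dlx6) to 81.7% (Dlx2 and Dlx3) of bases were identical, and the longest identical run was 23 bases, shorter than the 100-base window searched for shared sequence. Linked genes were not the closest in sequence: the linked pairs encoded the same residue at 48 to 52 of 60 codons. Dlx1 and Dlx6 did so at 58 codons, with 36 of the 38 codons that differed between them synonymous, and Dlx2 and Dlx5 at 56. The family is known to divide into Dlx1, Dlx4 and Dlx6 on the one hand and Dlx2, Dlx3 and Dlx5 on the other, with 1 gene of each kind in every pair. Codons for the same residue numbered 52 to 58 within the first group, 53 to 56 within the other and 47 to 53 between unlinked genes of different groups. The ranges overlapped, since Dlx1 and Dlx5 shared 53 and Dlx1 and Dlx4 shared 52.

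Dlx5 and Dlx3 carried most of the Dlx transcripts. Levels are in TPM, a share of all transcripts that is per length and can be compared between genes, and a gene was called detected at 1 TPM or more in both replicates. All 6 genes were detected, where 65.4% of 21474 protein coding genes were. The 6 levels summed to 86.73 TPM in replicate 1 and 95.23 TPM in replicate 2 (91.0 ± 6.01), of which the Dlx5 and Dlx6 pair held 47.0% ± 1.36, the Dlx3 and Dlx4 pair 37.0% ± 3.13 and the Dlx1 and Dlx2 pair 16.0% ± 1.77. In bulk tissue, fewer cells of a type and less RNA per cell cannot be told apart.

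Dlx5, the osteoblast and lower jaw regulator, was at 37.34 TPM in replicate 1 and 43.58 TPM in replicate 2, from 1212 and 1479 reads. Dlx3, the epidermal and tooth regulator, was at 29.42 and 27.96 TPM, from 1818 and 1802 reads. Both replicates of Dlx5 were above both of Dlx3, and these genes took 44.4% ± 1.92 and 31.6% ± 3.23 of the summed Dlx TPM. By reads alone Dlx3 was ahead, since its transcript is the longer, so the order of these 2 genes holds per length only.

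Dlx1 was at 7.80 and 9.78 TPM, from 397.55 and 496.62 estimated reads. Dlx2 was at 4.99 and 6.65 TPM, from 275 and 389 reads, and both genes were higher in replicate 2. Dlx4, whose expression is known from arches and placenta, was at 4.57 and 5.14 TPM, from 207 and 247 reads. Dlx2 and Dlx4 overlapped: the lower replicate of Dlx2 was below the higher replicate of Dlx4. The deposited credibility bounds of these 2 genes overlapped in 1 of the 2 libraries, so their order, Dlx2 first in each library, is not separated by the spread between replicates.

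Dlx6, the partner of Dlx5 in the lower jaw, was the lowest, at 2.61 and 2.12 TPM from 83 and 82 reads. Its reads hardly differed between replicates while its TPM did. The authors' length for the gene, an average over its transcripts, went from 1392 to 1603 bases as transcript shares shifted. From Dlx5 down to Dlx6, every pair of neighbours in the order other than Dlx2 and Dlx4 had ranges that were apart, with bounds that overlapped in 0 libraries.

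**Figure D2:**
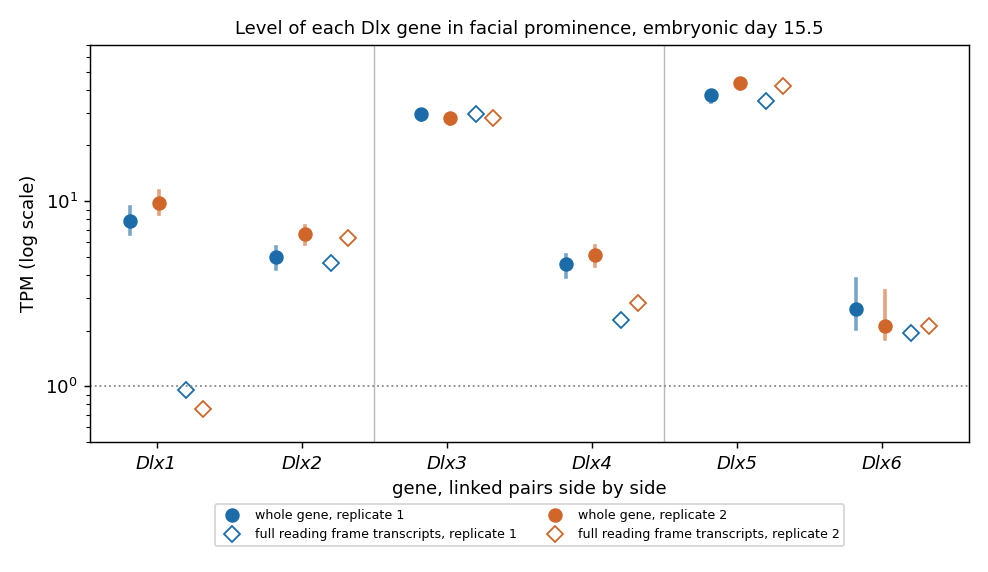
TPM (log scale) of each Dlx gene in replicate 1 (blue) and replicate 2 (orange), with linked pairs side by side and a dotted line at 1 TPM. Filled circles are the whole gene with its deposited credibility bounds as bars, and open diamonds are the transcripts with the homeobox in a full reading frame, without bounds: for Dlx1 the diamonds are at 0.95 and 0.75 TPM, far under the circles.

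Among 243 protein coding genes taken as homeobox genes by symbol, 38.3% were detected, and the median over those 93 genes was 10.4 TPM. Enc1, at rank 56, is counted among them though it is not a homeobox gene, so the ranks after 56 include it. The symbols did not cover every homeobox gene: Mkx, Crx and Homez, for example, are absent. The share detected, the median, the ranks and the neighbours hold within these 243 genes only. Msx1, a homeobox repressor of arch mesenchyme, led at 151.8 TPM. Dlx5 ranked 10 and Dlx3 ranked 17, and both were above the median of the detected homeobox genes. Dlx1 ranked 53, Dlx2 64, Dlx4 70 and Dlx6 80, all of them under it. With 1 condition, likeness could be taken only in level. Next to Dlx5 were Tgif2 (41.79 and 40.13 TPM) and Meis1 (42.10 and 38.23), and next to Dlx3 were Irx2 (30.35 and 28.16) and Meis2 (29.22 and 26.32). Dlx1 lay between Pitx3 and Otx1, Dlx2 between Uncx and Hoxd8, Dlx4 between Six3 and Six4, and Dlx6 between Nkx2-3 and Prox1. The replicate range of each Dlx gene overlapped those of its 2 neighbours, save that Dlx4 was above Six4 (3.86 and 4.10 TPM) in both replicates.

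**Figure D3:**
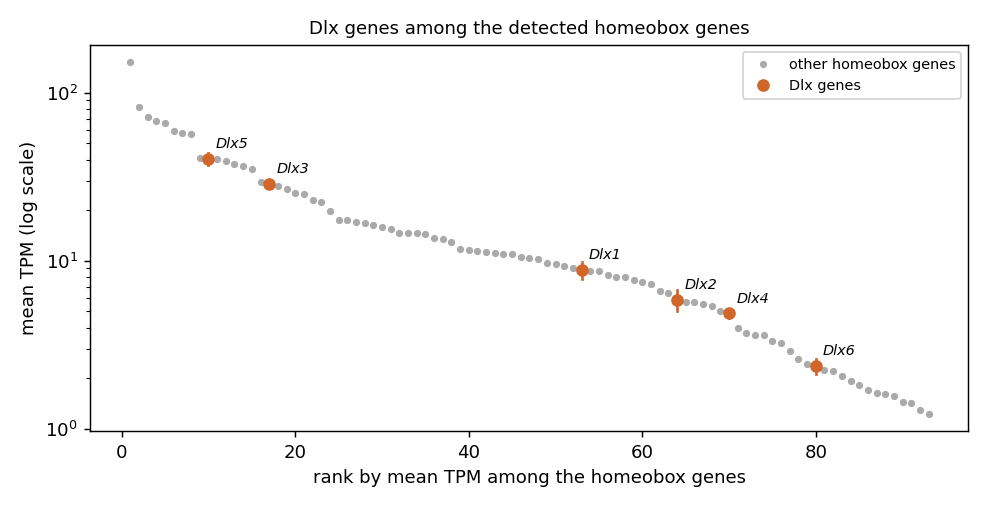
Mean TPM (log scale) of the 93 detected genes, Enc1 included, against their rank among all 243 taken as homeobox genes by symbol. Grey points are the other genes and orange points are the Dlx genes, with a vertical line from the lower to the higher replicate. Dlx5 and Dlx3 are in the upper part and the other 4 Dlx genes in the lower part of the curve.

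Within each linked pair 1 gene exceeded its partner by a different amount. On the log2 scale, the ratio of Dlx1 to Dlx2 TPM was 0.64 in replicate 1 and 0.56 in replicate 2 (0.60 ± 0.06), 1.52-fold. The ratio of Dlx3 to Dlx4 was 2.69 and 2.44 (2.57 ± 0.17), 5.92-fold. The ratio of Dlx5 to Dlx6 was 3.84 and 4.36 (4.10 ± 0.37), 17.1-fold. The 3 ratios did not overlap each other in any replicate, and the credibility bounds of the paired genes overlapped in 0 libraries. The excess of Dlx1 over Dlx2, the smallest, did not hold once transcripts were separated by what they contain: it turned to log2 -2.68 when only transcripts with a complete homeobox reading frame were counted.

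Dlx1 reads were assigned mostly to transcripts that keep an intron or start inside one. Dlx1-203, annotated as a retained intron transcript, took 37.5% of Dlx1 TPM in replicate 1 and 40.0% in replicate 2. Dlx1-206, annotated likewise, took 35.0% and 36.0%. Dlx1-201, the transcript with the full reading frame, took 12.1% and 7.71%, equal to 0.95 and 0.75 TPM. So, as reads were assigned to the annotated transcripts, the one that encodes the whole homeodomain was a minority of Dlx1 in both libraries.

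Dlx1-203 holds all 180 homeobox bases but with the 1107-base intron 2 between base 132 and the rest. Read from the start codon of Dlx1-201, its frame shares 171 codons, leaves at the intron and stops after 243 codons, against 255 codons in the full frame. Dlx1-206 begins within intron 1, 177 bases before exon 2, and joins exon 2 to exon 3, so its homeobox is whole but the start codon of Dlx1-201 is missing. Dlx1-203 is longer than Dlx1-206, and by reads it took 59.6% and 66.5% of the gene, against 11.9% and 12.8% for Dlx1-206 and 23.5% and 15.6% for Dlx1-201. Retained intron transcripts and unspliced Dlx1 RNA cannot be told apart in these tables.

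The point of departure of Dlx1-203 is shown because it ends the homeodomain reading frame. Lower case is exon 2 and capitals are intron 2 up to the first stop codon in frame.
Dlx1-203 (chr2:71531097-71531375, plus strand): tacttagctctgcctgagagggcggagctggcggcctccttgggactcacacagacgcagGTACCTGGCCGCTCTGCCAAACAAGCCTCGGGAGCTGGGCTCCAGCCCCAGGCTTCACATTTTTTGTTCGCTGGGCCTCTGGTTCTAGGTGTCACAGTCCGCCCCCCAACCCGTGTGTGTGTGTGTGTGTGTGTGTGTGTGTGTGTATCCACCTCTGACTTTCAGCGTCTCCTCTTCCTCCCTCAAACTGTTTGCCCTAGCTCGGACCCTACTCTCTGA

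The annotation bears on these shares. Dlx1-201 starts 1332 bases before the RefSeq start of Dlx1 (GRCm38.p6), and 1302 of its 100-base windows are in no other Dlx1 transcript. A spliced Dlx1 transcript starting at the RefSeq position was not among the 6 in the tables, and its part in the shares was not tested. The remaining Dlx1 transcripts lack the homeobox or hold part of it and were unsteady: Dlx1-205 took 3.91% and 15.5%, Dlx1-204, marked for nonsense-mediated decay, 6.59% and 0%, and Dlx1-202 4.91% and 0.74%. Of the 6 genes only Dlx1 had 100-base windows in common with another gene, 239 of 5715 (4.18%), all with the antisense gene Dlx1as.

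Dlx2, Dlx3 and Dlx5 were nearly all in the full coding form. Dlx2-201 took 92.5% and 94.8% of Dlx2 TPM, and the rest was Dlx2-202, a retained intron transcript with a whole homeobox. Dlx3 has a single annotated transcript, Dlx3-201, so its share of 100% is fixed by the annotation. Dlx5-201 took 93.1% and 96.5%.

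The second Dlx5 transcript, Dlx5-202, took 6.89% and 3.46%, or 77.71 and 47.43 estimated reads. It lacks 82 bases at the start of exon 2, of which 29 are homeobox. Its frame shares 118 codons with Dlx5-201 and stops after 146 codons, against 289. The authors' posterior SD of its reads was 24.0 and 20.6, and 95 of its 100-base windows were its own, so its share rests on few separating positions. The first sequence shows exon 2 with the bases that Dlx5-202 lacks in capitals. The second shows Dlx5-202 itself, with capitals from the junction to its stop codon.
Dlx5 exon 2 (chr6:6879526-6879710, minus strand): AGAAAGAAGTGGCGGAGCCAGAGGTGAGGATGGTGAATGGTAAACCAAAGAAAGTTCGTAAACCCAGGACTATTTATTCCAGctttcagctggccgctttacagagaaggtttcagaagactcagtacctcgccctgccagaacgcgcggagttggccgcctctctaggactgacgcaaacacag
Dlx5-202 (chr6:6879543-6881591, minus strand, spliced): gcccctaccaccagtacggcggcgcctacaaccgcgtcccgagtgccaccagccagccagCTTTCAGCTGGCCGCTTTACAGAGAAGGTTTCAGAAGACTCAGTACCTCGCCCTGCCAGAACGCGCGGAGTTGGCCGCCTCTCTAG

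Dlx4 was divided between 2 transcripts. Dlx4-201, with the homeobox, took 50.2% and 54.7%, or 2.29 and 2.81 TPM. Dlx4-202, annotated as a processed transcript, took 49.8% and 45.3%, or 2.27 and 2.33 TPM. Dlx4-202 takes its second exon from within the first intron of Dlx4-201 and holds no homeobox base. Its frame, read from the start codon of Dlx4-201, shares 95 codons and stops after 112, against 240. Their reads were separated with a posterior SD of 4.07 and 3.84 reads, small beside the 83.73 and 89.40 reads of Dlx4-202. That SD does not cover unspliced Dlx4 RNA. Its reads in the first intron cannot be told apart from the second exon of Dlx4-202 in these tables, so the split holds as reads were assigned. The sequence shows where it leaves Dlx4-201, with capitals from that point to its stop codon.
Dlx4-202 (chr11:95144561-95145255, minus strand, spliced): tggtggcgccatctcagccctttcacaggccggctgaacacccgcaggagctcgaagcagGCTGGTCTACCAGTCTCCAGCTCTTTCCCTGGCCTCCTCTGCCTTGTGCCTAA

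Dlx6 transcripts all rested on few reads. Dlx6-202 took 38.6% and 46.4%, and Dlx6-203, with the same homeobox frame and another 3′ end, 35.7% and 53.6%. Dlx6-201, whose annotated coding sequence has no start, took 25.8% in replicate 1 and 0% in replicate 2, and has 0 windows of its own. Dlx6-204, a retained intron transcript, was listed at 0 in both. The shifts among these transcripts are those that moved the length of Dlx6 between the replicates.

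**Figure D4:**
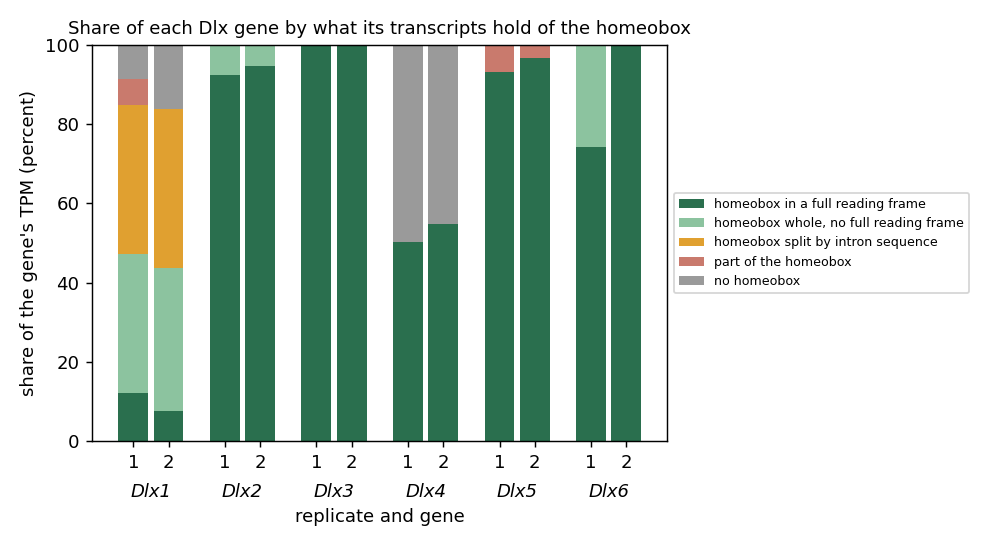
Share of each gene's TPM in percent, in replicates 1 and 2, by what its transcripts hold of the homeobox. Bars are stacked to 100%: dark green (a full reading frame) fills all of Dlx3, over 92% of Dlx2 and Dlx5, 50.2% and 54.7% of Dlx4, and 12.2% and 7.68% of Dlx1.

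Transcripts with the homeobox in a full reading frame, over all 6 genes, made 85.7% ± 0.572 of the summed Dlx TPM. Among these transcripts too, Dlx5 and Dlx3 were the highest. Dlx5 was at 34.77 and 42.07 TPM and Dlx3 at 29.42 and 27.96 TPM in this form. Dlx2 followed at 4.62 and 6.30 TPM, Dlx4 at 2.29 and 2.81 TPM, Dlx6 at 1.93 and 2.13 TPM and Dlx1 at 0.95 and 0.75 TPM. By this assignment of reads Dlx1 thus went from the third place by whole gene to the last in both replicates.

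The pair ratios changed with it. Dlx1 was lower than Dlx2, with log2 ratios of -2.28 and -3.07 (-2.68 ± 0.56), so Dlx2 was 6.39-fold higher. The ratio of Dlx3 to Dlx4 was 3.50 ± 0.26, 11.3-fold, and that of Dlx5 to Dlx6 was 18.9-fold. In this form the higher gene of each pair was the one of the Dlx2, Dlx3 and Dlx5 kind. By whole genes this did not hold for Dlx1 and Dlx2, where the log2 ratio was 0.60 in favour of Dlx1. In the full-frame form Dlx2, Dlx3 and Dlx5 summed to 68.81 and 76.33 TPM, most of it from Dlx3 and Dlx5. Dlx1, Dlx4 and Dlx6 summed to 5.17 and 5.69 TPM. By whole genes the sums were 71.75 and 78.19 TPM against 14.98 and 17.04 TPM.

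The reversal of Dlx1 and Dlx2 was also seen without the full frame as a condition, though under measures that use the same annotated transcripts. With any uninterrupted homeobox counted, Dlx1-206 included, the mean log2 ratio was -0.54. With all reads of a gene over the length of its longest full coding transcript, Dlx1 was at 4.02 and 4.82 TPM and Dlx2 at 4.70 and 6.38 TPM, a mean log2 ratio of -0.31. That Dlx1 length is of the transcript starting 1332 bases before the RefSeq start, so this measure shares its annotation with the full-frame count. A shorter Dlx1 length would raise the ratio, and a length from the RefSeq start was not tried. Read numbers themselves gave 0.44 in favour of Dlx1. In the full-frame count fewer reads were assigned to Dlx1-201 (93.45 and 77.7) than to Dlx2-201 (270.12 and 384.31), before any length was applied. The order of Dlx1 and Dlx2 therefore depends on which transcripts are counted and on which lengths the reads are divided by. Dlx3 exceeded Dlx4 and Dlx5 exceeded Dlx6 under every one of these measures.

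**Figure D5:**
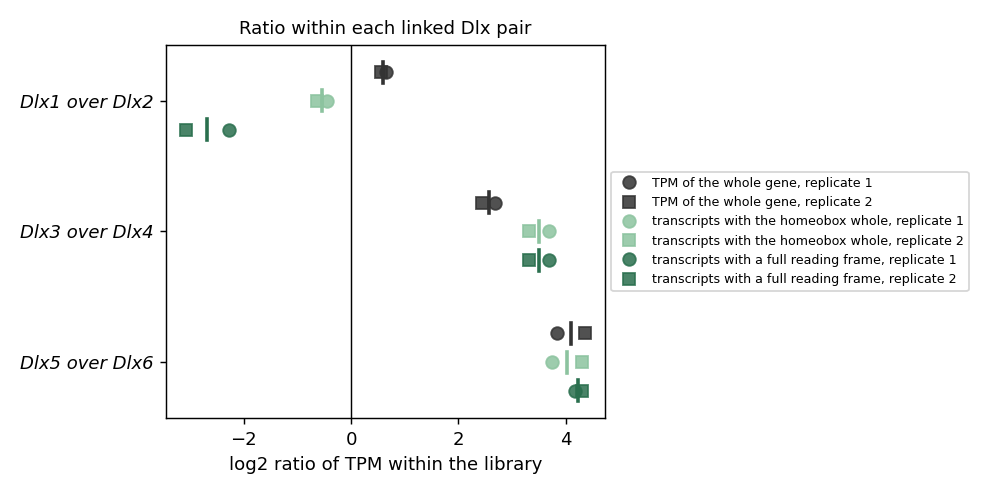
Log2 ratio of TPM within each library for the 3 linked pairs, as circles (replicate 1), squares (replicate 2) and a vertical bar at the mean. Dark grey is the whole gene, light green the transcripts with a whole homeobox and dark green those with a full reading frame: the Dlx1 to Dlx2 ratio moves from 0.60 to -0.54 and -2.68, across the line at 0, while the other pairs stay above 2.

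Noncoding genes lie at every Dlx locus, and 3 of 4 were detected, though the share of all noncoding genes detected was not computed. Dlx4os, opposite in strand to Dlx4, was at 3.50 and 3.68 TPM. Dlx6os1, also called Evf2 and known to act on the Dlx5 and Dlx6 enhancers, was at 3.61 and 2.58 TPM, from 379 and 277 reads. Its level exceeded that of Dlx6 in each replicate, but their ranges overlapped, and so did their deposited credibility bounds in both libraries. Dlx6os1 was under Dlx5 by more than the spread. A second, 146-base row of the same symbol held 1 and 2 reads. Dlx1as was at 2.10 and 2.89 TPM, and Dlx6os2 was at 0.10 and 0.12 TPM from 3 and 4 reads. Exons overlapped on opposite strands over 335 bases for Dlx1 and Dlx1as, 79 for Dlx4 and Dlx4os and 104 for Dlx6 and Dlx6os2. The strand setting of the counting is not given in the sources used here, so reads in these overlaps cannot be told apart by strand. The posterior SD of reads was 3.37 and 4.26 for Dlx1 and the same for Dlx1as, and 0 for the 5 other Dlx genes. The windows that Dlx1 and Dlx1as share are on opposite strands, and the estimated reads of both were fractional (29.45 and 41.38 for Dlx1as). Some reads were thus divided between these 2 genes across strands, and the Dlx1 values may include antisense RNA.

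Coding genes that flank the pairs ranged from 0.14 to 197 TPM in mean level. Metap1d, a mitochondrial methionine aminopeptidase gene 2918 bases from Dlx1, was at 34.28 and 35.39 TPM, above Dlx1 and Dlx2, and the other genes named at this locus, Hat1, Itga6 and Pdk1, were at means of 42.4 to 78.4 TPM. At Dlx3 and Dlx4, Pdk2 was at 27.02 and 32.88 TPM, a range that holds both values of Dlx3. Itga3 was at 9.03 and 7.46 TPM, under Dlx3, Kat7 was at a mean of 51.99 TPM and Tac4 at 0.14 TPM. At Dlx5 and Dlx6, Sem1 was at 196.16 and 197.63 TPM, Slc25a13 at a mean of 10.8, Tac1 at 8.12 and Sdhaf3 at 3.84 TPM.

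Endothelin signalling and its companions in the arch were represented by 9 genes, of which 8 passed 1 TPM. Their median level was 33.8 TPM, where the median of all coding genes was 6.10 TPM. Of all coding genes 65.4% were detected, the share to set beside the count of each coding gene list from here on. Edn1, the ligand that induces Dlx5 and Dlx6 in the lower arch, was at 4.09 and 4.21 TPM. Its receptor Ednra was at 37.80 and 44.74 TPM, near the level of Dlx5, and Ece1, the enzyme that processes endothelin, at 52.47 and 58.52 TPM. Downstream, Gnaq, Gna11, Plcb3 and the transcription factor Mef2c were at means of 26.8, 70.8, 33.8 and 64.8 TPM. Bmp4, a signal of the tip of the arch, was at 26.93 and 28.99 TPM, while Fgf8, a signal of the early arch epithelium, was at 0.16 and 0.11 TPM from 3 reads in each library.

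Of 12 arch genes known to be altered in Dlx mutants, 8 were detected, a share near the 65.4% of all coding genes, and the median level was 7.26 TPM, where that of all coding genes was 6.10 TPM. Pitx1, a hindlimb and jaw homeobox gene, and Bmp7 were highest, at means of 36.8 and 32.7 TPM. Barx1, Alx4 and Gsc were at means of 14.5, 11.6 and 11.2 TPM. Pou3f3, a marker of the upper jaw part of the arch, was at 3.16 and 3.50 TPM, and Hand2, which acts under Dlx5 and Dlx6 at the arch tip, at 3.23 and 1.94 TPM. Foxl2 crossed the threshold in replicate 2 only (0.82 and 1.60 TPM), and Hand1, Gbx2 and Nkx3-2 were at means of 0.53, 0.23 and 0.22 TPM.

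All 5 genes for known protein partners passed 1 TPM, and their median level was 152 TPM. Maged1, whose product binds Dlx5, was at 526.78 and 527.14 TPM, its relative Ndn at 290.66 and 244.05 TPM, and Msx1, which pairs with Dlx proteins and opposes them, at 145.31 and 158.26 TPM. Msx2 was at 15.53 and 18.03 TPM and Grip1 at 3.37 and 3.83 TPM. Msx1 thus exceeded the 6 Dlx genes summed.

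Of 9 bone genes tied to Dlx3 or Dlx5, 8 were detected, and their list had a median of 27.9 TPM. The osteoblast regulators Runx2 (24.04 and 22.24 TPM) and Sp7 (28.19 and 27.19 TPM) were near Dlx3 in level. Matrix genes were higher: Col1a1 was at a mean of 3345 TPM, Ibsp at 621.6, Spp1 at 349.3 and Alpl at 125.3. Bglap, the osteocalcin gene with near-identical copies, was at 28.58 and 14.51 TPM, and Col10a1, of hypertrophic cartilage, at 0.60 and 0.39 TPM.

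All 8 epidermis and hair genes passed 1 TPM, and their median level was 199 TPM. Krt14 and Krt5 of the basal layer were at means of 946.4 and 737.5 TPM, Krt1 and Krt10 of the layers above at 607.5 and 337.1 TPM, and Trp63, which acts upstream of Dlx3 in epidermis, at 64.93 and 58.50 TPM. Gata3 and Lef1 were at 41.6 and 41.1 TPM, and Hoxc13, of the hair shaft, at 3.63 TPM. Of 7 enamel genes only Ambn was detected, at 4.33 and 4.69 TPM. Odam was at 0.89 and 0.98 TPM, Mmp20 at 0 in both libraries, and Amelx, Enam, Klk4 and Amtn at means of 0.14 TPM or less, giving the list a median of 0.075 TPM.

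Of 10 genes of the forebrain neurons in which Dlx genes also act, 4 were detected, and the median level was 0.688 TPM. Among them were Lhx6 (5.81 and 5.51 TPM), a LIM homeobox gene that arch mesenchyme also expresses, Sp8 (3.16 and 3.70 TPM) and Sp9 (2.21 and 2.28 TPM). The defining genes of GABA synthesis and transport were low: Gad1 was at 0.64 and 0.56 TPM, Gad2 at 0.27 and 0.41 TPM and Slc32a1 at 0.06 and 0.04 TPM. Nkx2-1 and Gsx2 were at 0 reads in both libraries. Of 4 cortex markers 0 were detected, with a summed level of 1.23 and 1.19 TPM.

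Markers of cell types were set beside the tissue label. Detection, which 65.4% of all coding genes reached, cannot by itself tell the face from other embryonic tissues, and no other tissue was at hand. All 6 facial mesenchyme markers (led by Msx1, Prrx1 and Prrx2, summing to 376.8 and 401.9 TPM) and all 5 epithelium markers (led by Krt14, Krt5 and Epcam, summing to 1994 and 1772 TPM) were detected. So were 4 of 4 neuron markers, led by Tubb3, Stmn2 and Snap25, at 73.0 and 79.0 TPM summed, and 4 of 4 red blood cell markers, led by Hbb-bs, Hba-a1 and Alas2, at 10656 and 7884 TPM summed. The libraries held 37128010 and 38543623 expected counts, of which spike-ins took 2.91% and 4.59%.

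Scaled by TMM, replicate 2 was over replicate 1 by 1.36-fold for Dlx2, 1.20-fold for Dlx1, 1.17-fold for Dlx5 and 1.14-fold for Dlx4, and Dlx3 and Dlx6 were at 0.951 and 0.949. None of the 6 passed 1.5-fold, where 9.08% of 18318 genes did, so a count of 0 says nothing particular of the family. The size of the log2 ratio was larger than in 85.99% of genes for Dlx2, 74.2% for Dlx1, 70.7% for Dlx5 and 66.0% for Dlx4, and larger than in 34.6% for Dlx3 and 35.7% for Dlx6. The 95% counting interval of the log2 ratio was above 0 for Dlx1 (0.07 to 0.45), Dlx2 (0.21 to 0.67) and Dlx5 (0.12 to 0.34) and held 0 for Dlx3, Dlx4 and Dlx6. These intervals cover counting error only. With spike-in totals as the scale the median of all genes moved to log2 -0.65. All 6 Dlx ratios were then negative, from -0.21 (Dlx2) to -0.72 (Dlx3). Dlx3 and Dlx6 were past 1.5-fold on that scale, as were 65.6% of the 18318 genes. Relative to that median, Dlx1, Dlx2, Dlx4 and Dlx5 were above and Dlx3 and Dlx6 below it. Summed marker levels were higher in replicate 2 for mesenchyme and neurons and lower for epithelium and red blood cells. The members did not all follow their sums: Epcam and Cdh1 were higher in replicate 2 while Krt5, Krt14 and Trp63 were lower, and Twist1, Tfap2a and Pdgfra were lower while Prrx1, Prrx2 and Msx1 were higher. The median of the epithelium list was 81.84 and 87.33 TPM, and the part of tissue makeup in the Dlx differences was not tested.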

How the data were processed

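Per a text file deposited beside the tables, the authors used alignments to the mm10 transcriptome with annotation M4, and each table holds 1 library. Not given in the sources used here are the aligner, quantifier, versions and strandedness. Per the file headers, the deposited tables gave an expected count, a TPM and, for transcripts, the percent of the gene's transcripts. Deposited credibility bounds of TPM, whose level the tables do not print, were recorded as a score. TPM covers spike-ins and numbered sequences too, both left out here beyond scaling.

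Genes and transcripts were matched by identifier to GENCODE M21, in which all 17 Dlx transcripts had the length given in the tables. The homeobox was found by translating coding sequences, and shared sequence by 100-base windows, with Python 3.11.15, pandas 2.3.3, numpy 2.4.6, scipy 1.17.1, Biopython 1.88 and matplotlib 3.10.9. Replicate ratios used expected counts rounded to whole numbers, edgeR 4.0.16 TMM in R 4.3.3, a prior count of 2 and a minimum of 10 counts in each library. Their calculation alone was checked on simulated counts, which held counting error only and not the spread between replicates. DESeq2 1.42.0 size factors were an alternative. A read on 1 kb made 0.0406 and 0.0389 TPM.

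Named were all Dlx genes and transcripts, the noncoding genes of the loci, the nearest 2 coding genes on each side, the homeobox genes next in level, all members of the lists on regulation, partners and targets, and the highest 3 of each marker list. A few genes so named are counted in their lists but not reported here. Members and lists were chosen with earlier results of these data known.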

Additional observations from a re-analysis of the deposited data

How the results depend on the processing

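With 2 libraries of 1 group, values carry no test. No paired analysis was possible because there was only 1 group. Leaving out a replicate gives the value of the other, and neither a pair ratio nor the order of the 6 levels changed direction. Over mouse genes only, all 6 levels rose, since spike-ins and numbered sequences leave the total. Dlx1 was at 9.61 TPM, Dlx2 at 6.37, Dlx3 at 31.3, Dlx4 at 5.30, Dlx5 at 44.2 and Dlx6 at 2.57. The rise passed the replicate SD for Dlx3 and Dlx4 only. At 5 TPM or more in both replicates 3 Dlx genes were detected, where the median of all coding genes was 6.10 TPM. The share of all coding genes at that threshold was not computed, so the count cannot be read as particular to the family. With 1 added to each TPM the log2 ratios were 0.52 (Dlx1 to Dlx2), 2.34 (Dlx3 to Dlx4) and 3.62 (Dlx5 to Dlx6). From expected counts, without length, they were 0.44 and 3.0 for the first 2 pairs, and the shares of Dlx2, Dlx3, Dlx5 and Dlx6 were 7.77%, 42.8%, 31.6% and 1.95%. Past 1.5-fold between replicates were 65.6% of genes with spike-in totals as the scale and 24.0% with no filter on low counts.

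Other measures were chosen after seeing the data. With all reads over the length of the longest full coding transcript, Dlx1 was at 4.42 TPM, Dlx4 at 4.13 and Dlx6 at 1.55, and the log2 ratios were -0.31 (reversed), 2.80 and 4.70. With the homeobox in the reading frame Dlx1 to Dlx2 was -2.68 and with an uninterrupted homeobox -0.54, both reversed, and Dlx3 to Dlx4 was 3.50 in both. The order of Dlx1 and Dlx2 thus turns on the transcript models. Depth limits Dlx6, with 82 to 83 reads over 4 transcripts, and transcripts with few windows of their own.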
